A study of Mus musculus with 6 samples.

Results

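Sema5a, a guidance factor of the semaphorin family, was described in follicular B cells together with 5 other semaphorins (Sema4a, Sema4b, Sema4c, Sema4d and Sema7a) and the plexin receptors Plxnb2 and Plxnd1. These 8 genes, of 20458 gene names in the table, were picked by name from values of this comparison: Sema5a was chosen on its difference between the genotypes, and the others as its relatives. The values below are therefore a description and were not tested. Follicular B cells (B220+AA4.1-CD23+CD21lo) were sorted from C57BL/6 mice and their total RNA was amplified and sequenced, with 3 samples of genotype CD23Cre+Myh9wt/fl and another 3 of genotype CD23Cre+Myh9fl/fl. Both groups carry Cre recombinase driven by the CD23 promoter, which acts from the transitional stage onward, and at least 1 Myh9 allele with LoxP sites around exon 3, so the wt/fl cells are haploinsufficient for myosin IIa and no wild-type cells were in the comparison. The study used young adult male and female mice for work on freshly isolated cells, and the sources used here do not give the age or sex of each sequenced sample.

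The table holds 1 FPKM value (fragments per kilobase of transcript per 1000000 mapped fragments) per genotype, which the authors pooled over the 3 samples. These values therefore do not give the spread among the mice of a genotype, and depth per sample is unknown. The authors' own test results were not used, so no difference was set against replicate error here. Log2 ratios are those of fl/fl over wt/fl FPKM. A gene was counted as past 2-fold when its log2 ratio was at least 1 in size, which is a size and not a test. Myh9, the deleted gene, was at 50.6 FPKM in wt/fl against 21.1 FPKM in fl/fl, or 41.7% of the haploinsufficient level. Only exon 3 is removed and fragments from other exons still count, so this share does not measure how complete the deletion was. The paper checked the deletion in follicular B cells by exon 3 mRNA and by western blot of the protein. The sorted cells carried their defining markers in both genotypes: all 9 follicular B cell markers compared, among them Ms4a1, Cd79a, Pax5, Fcer2a and Cr2, were at 101 FPKM or more. Of the 9, 7 were higher and 2 lower in fl/fl. Fcer2a, the gene of CD23, was at 439 FPKM in wt/fl against 588 FPKM in fl/fl, a log2 ratio of 0.42.

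Semaphorins are secreted or membrane-bound ligands that share a sema domain, and plexins are their main receptors. On binding, plexins act on small GTPases and so on integrin adhesion, actin filaments and myosin contractility. In the immune system Sema4d is the abundant semaphorin of resting lymphocytes and binds Cd72 on B cells, Sema4a and Sema7a take part in the exchange between antigen-presenting cells and T cells, and Plxnb2 and Plxnd1 have been studied in germinal center B cells. Sema5a is a transmembrane semaphorin with thrombospondin repeats, best known from axon guidance, where plexins of the A and B classes and proteoglycans are its partners.

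Sema5a lies on chromosome 15 from 32174568 to 32626096 (mm9) and has a single entry in the table. It was at 1.57 FPKM in wt/fl against 0.326 FPKM in fl/fl cells. The fl/fl level was 20.7% of the wt/fl level, a log2 ratio of −2.27 and a 4.83-fold difference. Sema5a was thus a low transcript in both genotypes, with a mean of 0.950 FPKM, and did not reach the mean of 1 FPKM asked of genes in the counts over the whole table. With 1 FPKM added to each value, its log2 ratio was −0.96. The only coding transcript of Sema5a in GENCODE M21 (GRCm38) has 23 exons and 10809 bases. At that length, the pooled FPKM would correspond to about 17.0 fragments per 1000000 mapped in wt/fl and 3.53 fragments per 1000000 mapped in fl/fl. The transcript lengths that the authors used are not given in the sources used here, so these are estimates.

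Low genes differ widely between the genotypes in this table. Of the 1467 gene names with a mean from 0.5 FPKM to under 2 FPKM, a range set after the mean of Sema5a had been seen, 7.5% were at least 2-fold lower and 3.68% at least 2-fold higher in fl/fl. The central 90% of their log2 ratios ran from −1.18 to 0.85. In that range, 31 gene names were at least 4-fold lower, and Sema5a had the 19th lowest ratio. Of the 4 members in the range, Sema5a was past 2-fold, while Sema4a, Plxnd1 and Plxnb2 ranked 125th, 206th and 666th from the lowest. Sema5a was in view because of this same difference, so its rank is no separate evidence.

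**Figure D1:**
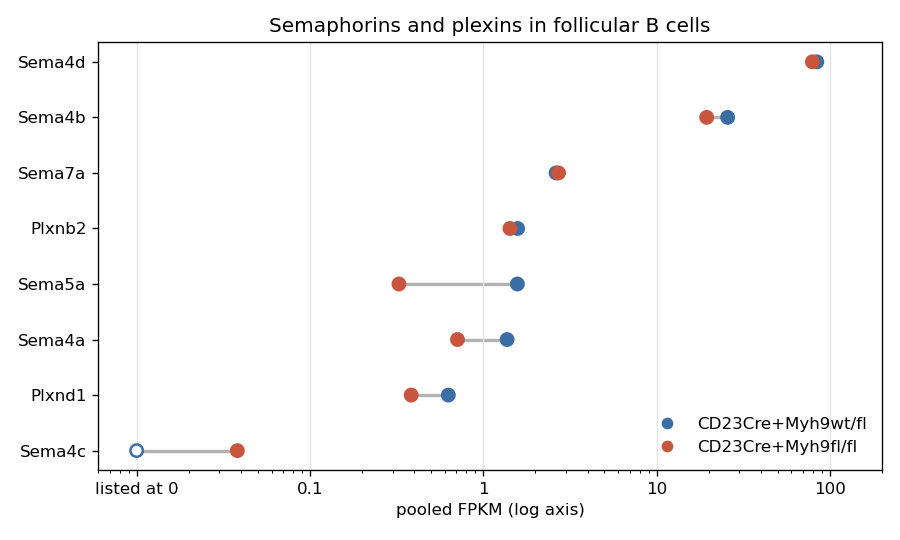
Pooled FPKM of the 8 genes on a log axis, in CD23Cre+Myh9wt/fl (blue) and CD23Cre+Myh9fl/fl (red) follicular B cells, with 1 value per genotype and no error bars because samples were pooled. Sema5a has the widest gap among the genes above 0 in both genotypes (1.57 and 0.326 FPKM), Sema4d, Sema7a and Plxnb2 nearly coincide, and the open circle marks Sema4c, listed at 0 in wt/fl.

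The other members spanned a wide range of levels. FPKM is scaled to transcript length, so the members can be ordered within a genotype. In wt/fl the order was Sema4d, Sema4b, Sema7a, Plxnb2, Sema5a, Sema4a, Plxnd1 and Sema4c, as the plot of pooled FPKM by gene shows. In fl/fl the order was Sema4d, Sema4b, Sema7a, Plxnb2, Sema4a, Plxnd1, Sema5a and Sema4c, with Sema5a moving from place 5 to place 7. Plxnb2 and Sema5a were 1.00-fold apart in wt/fl, and Sema5a and Sema4a 1.15-fold. In fl/fl Sema4a was 2.18-fold above Sema5a. Without replicates it cannot be said which neighbors in these orders differ.

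Sema4d, on chromosome 13 from 51796617 to 51889013 (mm9), was the most highly expressed semaphorin in both genotypes. It had 84.1 FPKM in wt/fl against 79.3 FPKM in fl/fl, a log2 ratio of −0.084. Sema4d was 53.4-fold above Sema5a in wt/fl and 243-fold above it in fl/fl. Sema4b, a membrane-bound relative on chromosome 7 from 87331727 to 87371410, came next with 25.7 and 19.5 FPKM. Its fl/fl level was 75.7% of the wt/fl level, a log2 ratio of −0.40, and Sema4d exceeded it 3.27-fold in wt/fl and 4.07-fold in fl/fl. Both genes lie in the range from 20 FPKM to under 100, where 0.254% of 3146 gene names were past 2-fold in either direction and 0 of these 2 members were.

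Sema7a, a semaphorin held in the membrane by a GPI anchor and a ligand of integrin beta 1 and Plxnc1, lies on chromosome 9 from 57787942 to 57810672. It was at 2.63 FPKM in wt/fl against 2.72 FPKM in fl/fl, a log2 ratio of 0.046, and was the only member above 0 in both genotypes that was higher in fl/fl. Sema4a, on chromosome 3 from 88239884 to 88265104, was at 1.37 and 0.710 FPKM. Its log2 ratio was −0.95, a 1.93-fold difference just short of 2-fold, and after Sema5a the most negative of the 7 members with a ratio. Sema4a has a shorter mRNA, and its FPKM would correspond to only 4.40 and 2.28 fragments per 1000000 mapped at the length of its longest coding transcript (3205 bases). In GENCODE M21, 73 of its 5406 exonic bases also belong to a microRNA gene on the same strand. Sema4c, on chromosome 1 from 36605487 to 36615226, was listed at 0 in wt/fl and at 0.0381 FPKM in fl/fl, so no ratio is given, and the authors' software marked it as having too few fragments to compare.

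Plxnb2, a receptor of class 4 semaphorins, lies on chromosome 15 from 88985979 to 89011218. It had 1.58 FPKM in wt/fl against 1.43 FPKM in fl/fl, a log2 ratio of −0.15. Plxnd1, a receptor of Sema3e and Sema4a, lies on chromosome 6 from 115904829 to 115945023 and had 0.629 and 0.384 FPKM. Its log2 ratio was −0.71, and it too was marked as having too few fragments. Among the 3 members with a mean from 1 FPKM to under 5 (Sema4a, Sema7a and Plxnb2), 0 were past 2-fold, beside 4.21% of 2137 gene names in either direction. Over all 9866 gene names whose mean reached 1 FPKM, 0.405% were at least 2-fold higher and 0.831% at least 2-fold lower, and of the 5 members that reached this mean 0 were. Sema5a, Plxnd1 and Sema4c did not reach it. In all, 6 of the 8 members had the lower value in fl/fl and 2 the higher, Sema4c with its 0 in wt/fl among the higher. Of the 9866 gene names, 4880 were lower and 4986 higher in fl/fl. The members were picked by name from these values, so their count of directions was not tested.

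**Figure D2:**
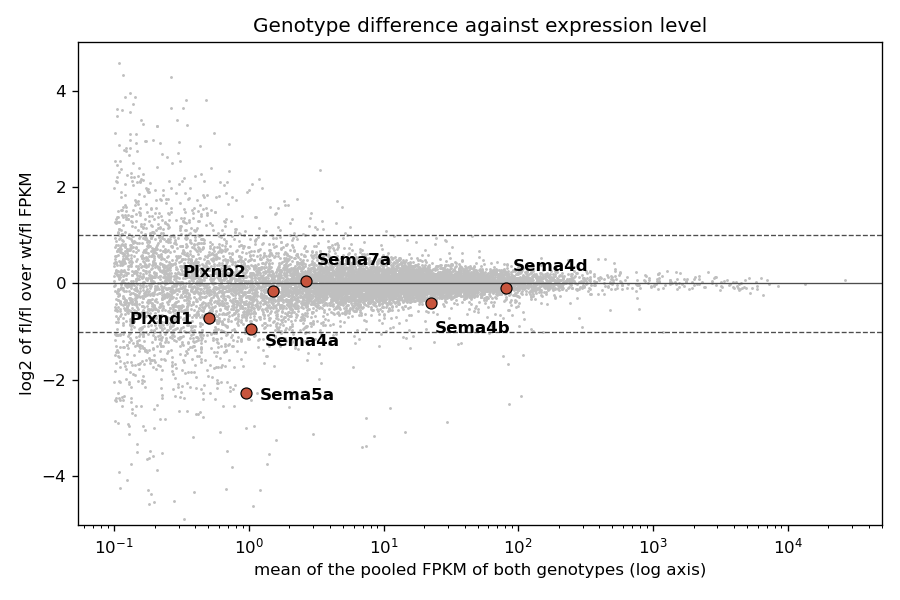
Log2 ratio of fl/fl over wt/fl FPKM against the mean FPKM of both genotypes (log axis) for each gene name with a mean of at least 0.1 FPKM and both values above 0, with the 7 members that have a ratio in red and dashed lines at 2-fold (6 gene names with a ratio beyond 5 in size are not shown). Ratios scatter more at low means, Sema5a lies at −2.27 at a mean of 0.950 FPKM, and the other members lie between −0.95 and 0.046.

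The members make up nearly all of the semaphorin mRNA in these cells. The 20 semaphorin genes in the table summed to 117 FPKM in wt/fl against 104 FPKM in fl/fl, a log2 ratio of −0.17. Sema4d alone held 71.9% of this sum in wt/fl against 76.5% in fl/fl, and with Sema4b it held 93.9% and 95.3%. The share of Sema5a was 1.35% in wt/fl against 0.314% in fl/fl. The 14 semaphorins outside the members were all at 0.408 FPKM or less in both genotypes, and of all 20 genes Sema3f was listed at 0 in both. At such levels ratios say little: Sema5b, the other member of its class, had 0.0602 and 0.0977 FPKM, and of the transmembrane class 6 Sema6b had 0.408 and 0.127 FPKM and Sema6d, summed over 5 entries, 0.368 and 0.169 FPKM.

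The 9 plexin genes summed to 29.5 FPKM in wt/fl against 25.7 FPKM in fl/fl, a log2 ratio of −0.20. Plxnc1, a receptor of Sema7a, held 86.4% of this sum in wt/fl and 85.5% in fl/fl, with 25.5 and 22.0 FPKM and a log2 ratio of −0.21. Plxna3 was at 1.37 and 1.22 FPKM, close to Plxnb2, and the other plexins had a mean under 1 FPKM. Among the plexins known to bind Sema5a are Plxna3, at the levels just given, Plxnb3, at 0.00546 and 0.0813 FPKM, and Plxna1, at 0.348 and 0.463 FPKM.

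**Figure D3:**
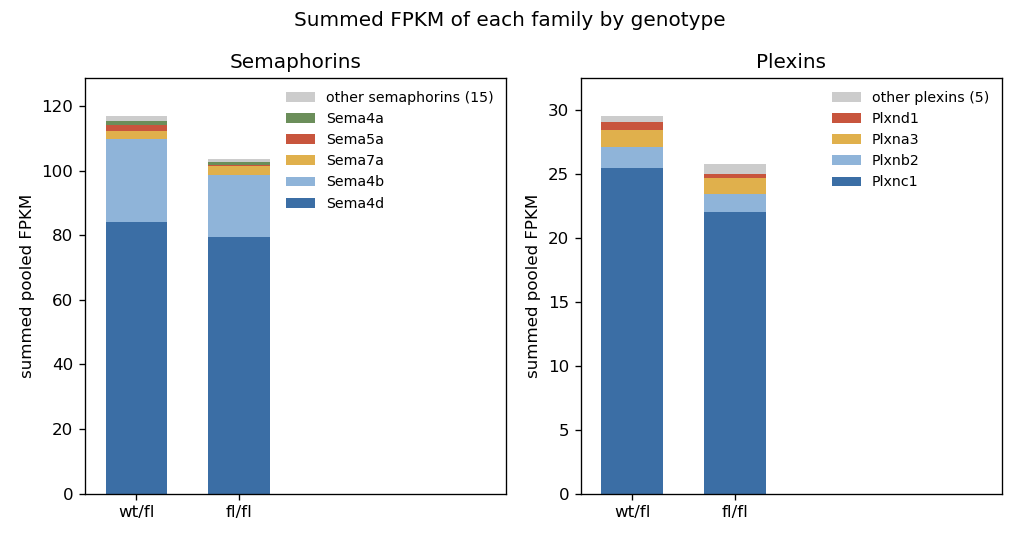
Stacked bars of the summed pooled FPKM of the 20 semaphorin genes (left) and the 9 plexin genes (right) in wt/fl and fl/fl cells, with the named genes in color and the rest in gray. Sema4d and Sema4b form 93.9% of the semaphorin sum in wt/fl and 95.3% in fl/fl, Plxnc1 forms 86.4% and 85.5% of the plexin sum, and Sema5a is a thin band.

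Receptors outside the plexins and proteins that act below them were compared as lists, by the gene names with a mean of at least 1 FPKM. Of 19 co-receptors and other receptors, 7 reached this mean, with 4 higher and 3 lower in fl/fl and a median log2 ratio of 0.0053, beside 0.0027 over all gene names. Cd72, the lymphocyte receptor of Sema4d, was far above its ligand, at 282 FPKM in wt/fl against 289 FPKM in fl/fl over 4 entries. Of these entries the highest went from 120 to 106 FPKM and the next from 72.0 to 87.5 FPKM, so the summed value hides entries that differ in direction. Sdc4, a syndecan proteoglycan, was at 99.5 and 107 FPKM, and Tyrobp, an adaptor that works with Plxna1 in myeloid cells, at 63.9 and 64.1 FPKM. Sdc1, another syndecan and a plasma cell marker, was the only 1 of the 7 past 2-fold, with 2.30 and 1.13 FPKM and a log2 ratio of −1.03. With 0.1 or 1 FPKM added to each value, it was no longer past 2-fold. Itgb1, the integrin chain that binds Sema7a, was at 11.6 and 9.31 FPKM. Neuropilins, the co-receptors of class 3 semaphorins, were low, with Nrp1 at 0.207 and 0.249 FPKM and Nrp2 at 0.652 and 0.529 FPKM.

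Of 40 genes of plexin signaling, 39 were in the table and 28 reached a mean of 1 FPKM. Of these, 17 were higher and 11 lower in fl/fl, 0 were past 2-fold, and the median log2 ratio was 0.036. The highest were Cfl1 (cofilin, which severs actin filaments) at 495 and 553 FPKM, Rac2 at 250 and 280 FPKM, and Rhoa, a GTPase that promotes myosin contractility, at 227 and 235 FPKM. The exchange factors that link class B plexins to Rhoa were also present, Arhgef11 at 7.53 and 8.10 FPKM and Arhgef12 at 4.26 and 3.89 FPKM. Of 6 proteases that release or process semaphorins, 3 reached the mean. Adam17 was at 37.2 and 31.2 FPKM, Adam10 at 20.7 and 21.1 FPKM, and Furin at 4.60 and 5.29 FPKM, with a median log2 ratio of 0.028. Counting all pathway genes outside the 8 members by level, 1 of 11 with a mean from 1 to under 5 FPKM was past 2-fold, beside 4.21% of gene names, and that was Sdc1. For means from 5 to under 20 FPKM it was 0 of 9, beside 0.53%. For means from 20 to under 100 FPKM it was 0 of 12, beside 0.254%, and for means of 100 FPKM or more 0 of 8, beside 0.485%.

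**Figure D4:**
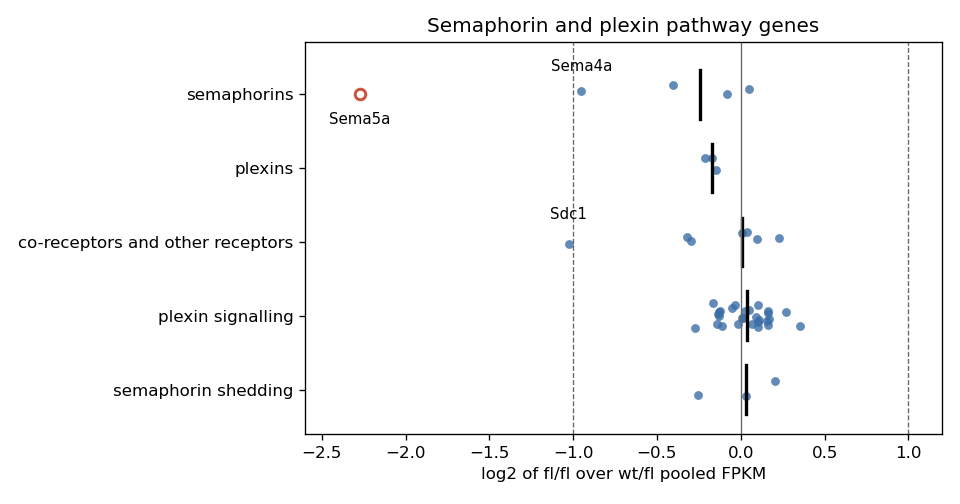
Log2 ratio of fl/fl over wt/fl FPKM for the genes of 5 lists with a mean of at least 1 FPKM, with a point per gene, a black bar at the median of each list and dashed lines at 2-fold. Sema5a is added as an open circle, since its mean of 0.950 FPKM is below that limit, and Sdc1 (−1.03) is the only filled point past 2-fold.

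Markers of other cells also had unequal levels in the genotypes. In bulk RNA, fewer cells of a type and less RNA per cell cannot be told apart. All 12 neutrophil markers were lower in fl/fl, and their sum was 374 FPKM in wt/fl against 71.5 FPKM in fl/fl, or 19.1% of the wt/fl sum. Most of it came from S100a8 and S100a9. The difference was uneven within the list: Cxcr2 was at 5.99 and 4.96 FPKM and Csf3r at 2.32 and 1.51 FPKM, but Ltf at 2.31 and 0.118 FPKM. The granule genes Mpo and Elane were at 0.0916 and 0.119 FPKM in wt/fl and listed at 0 in fl/fl. Of 6 plasma cell markers 5 were lower, with a sum of 118 and 107 FPKM. Most of it came from Irf4 (60.8 and 58.9 FPKM) and Xbp1 (48.8 and 45.9 FPKM), while Igj went from 5.40 to 0.617 FPKM and Tnfrsf17 was listed at 0 in both. Of the 6 erythroid markers listed, 5 were lower, with a sum of 4.23 and 2.73 FPKM. Hemgn alone was higher (0.437 and 1.95 FPKM) and made up most of the fl/fl sum. Of 6 marginal zone B cell markers 4 were lower, with a sum of 191 and 127 FPKM, most of it Plac8. The cells had been gated on B220, CD23 and low CD21, and RNA of neutrophil markers was still present. S100a8 was at 145 FPKM in wt/fl against 25.8 FPKM in fl/fl, and S100a9 at 175 and 34.5 FPKM. How many neutrophils, red cells, plasma cells or marginal zone B cells passed the gate is not known from these values. The part of these cells in the values of Sema5a was not tested.

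Of the other lists, macrophage and monocyte markers summed to 20.6 FPKM in wt/fl against 18.4 FPKM in fl/fl (7 of 11 lower), and T cell markers to 24.1 and 22.5 FPKM (5 of 8 lower). Germinal center markers summed to 58.0 and 70.3 FPKM (3 of 6 lower), mostly from Bcl6. Dendritic cell markers summed to 149 and 120 FPKM (5 of 8 lower), nearly all from Ccr7, which B cells express, and the other 7 were at 0.772 FPKM or less in both genotypes. Endothelial and stromal markers other than Pecam1 were at 0.299 FPKM or less, with Col3a1 listed at 0 in both. These sums also stand beside Sema4a and Plxnd1, and their part in those values was not tested.

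**Figure D5:**
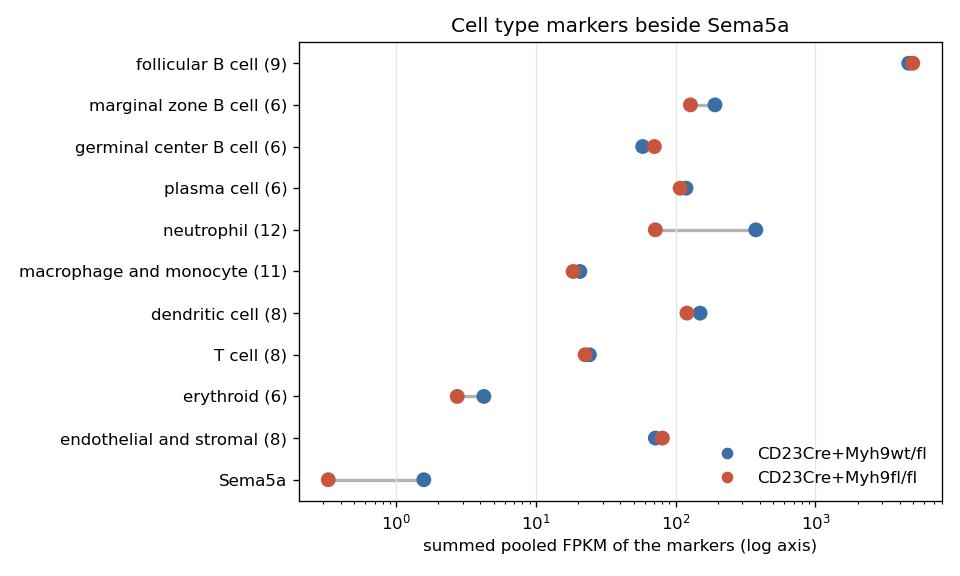
Summed pooled FPKM (log axis) of the markers of 10 cell types, with the number of markers in the table in brackets, in wt/fl (blue) and fl/fl (red) cells, and Sema5a in the last row. The widest gap between marker sums is that of the neutrophil list (374 and 71.5 FPKM), and the follicular B cell sum is nearly the same in both genotypes (4648 and 4969 FPKM).

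Among the 9866 gene names whose mean reached 1 FPKM, those with a pair of values most like that of Sema5a were sought. Likeness was the Euclidean distance between log2 FPKM in wt/fl and fl/fl, over 2 pooled values. Sema5a itself, at a mean of 0.950 FPKM, falls below this limit. Gene names at its own mean or lower were therefore not searched. Ccl3, a chemokine gene, was nearest at a distance of 0.14, with 1.74 FPKM in wt/fl against 0.325 FPKM in fl/fl. It was followed by Mia (1.91 and 0.396 FPKM, distance 0.39), Rab20 (1.93 and 0.250 FPKM, 0.48), Arl9 (2.85 and 0.299 FPKM, 0.87) and Ncan (2.59 and 0.225 FPKM, 0.90). With a single pair of values per gene, this likeness only says that their levels were close. The list is also incomplete, since gene names under the limit were left out. Laptm4b (1.19 FPKM in wt/fl against 0.269 FPKM in fl/fl) was 1 of these, and both its values lie closer to those of Sema5a than those of Ncan do.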

How the data were processed

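RNA of sorted follicular B cells from 3 samples of genotype wt/fl and 3 of genotype fl/fl had been amplified (Ovation RNA-Seq system) and sequenced without a strand-specific step being stated. The submitters' processing notes name TopHat, Bowtie and Cufflinks, with versions not given in the sources used here. FPKM were deposited by the authors in the layout of Cuffdiff, as 1 pooled value per genotype for each of 25017 transcript groups. Columns with the authors' own fold changes, test statistics, p-values and q-values were not used, so no test stands behind any difference.

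The labels name mm10, but only 104 of 18856 gene names matched by symbol had the same position in RefSeq GRCm38.p6, and the sequence names (118 entries on "random" sequences) are those of mm9. Starts counted from 0 gave 6191 gene lengths equal to RefSeq, against 437 from 1, so 1 was added to each start.

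FPKM were summed per gene name, leaving out 44 entries whose symbol a spreadsheet had turned into a date. Ratios had no pseudocount, and counts past 2-fold asked for a mean FPKM of at least 1. Other pseudocounts, scalings, filters and a 1.5-fold limit were tried, with their effect given at the end. Members, gene lists and tests were chosen with earlier results of these data known. The genes named were the 8 members, Myh9, and the semaphorins and plexins whose mean reached 1 FPKM. From each pathway list the 3 highest genes and those past 2-fold were named. The 5 gene names nearest to Sema5a, among those whose mean reached 1 FPKM, were named as well. Itgb1, the neuropilins, Arhgef11, Arhgef12, Plxnb3, Plxna1, Sema5b, Sema6b, Sema6d, Sema3f, single markers and neighbors on chromosome 15 were chosen after their values were seen. Sdc1 is on both the receptor and the plasma cell list. The counting of gene names past 2-fold was tested on simulated data with set ratios well beyond the limit. That checks the arithmetic of the counting only and says nothing on the scatter of low genes. Python 3.11.15, pandas 2.3.3, numpy 2.4.6 and matplotlib 3.10.9 were used. Some listed genes are not reported here and were left out of the marker sums.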

Additional observations from a re-analysis of the deposited data

How the results depend on the processing

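No paired analysis was possible because the authors pooled the 3 samples of a genotype into 1 value, and for the same reason no sample could be left out. A value counted as moved when its ratio, or its count, changed by over 1.5 times. With 1 FPKM added to each value, the log2 ratio of Sema5a was −0.96 in place of −2.27, and 9 gene names were at least 2-fold higher and 40 lower, in place of 40 and 82, since adding to low values shrinks their ratios. At a mean of at least 5 FPKM there were 4 higher and 28 lower, with no minimum 903 and 918, and at 1.5-fold 172 and 278. Counts past 2-fold in the pathway lists also changed with no minimum. Among semaphorins 1 was then higher and 5 lower, with Sema5a among the lower, and among plexins 2 were higher and 0 lower. Among co-receptors and other receptors 0 were higher and 4 lower, and in plexin signaling 3 were higher and 1 lower. The medians of the 5 pathway lists, and the ratios of the other 6 members with one, moved by less than 1.5 times under every alternative run (pseudocounts, scalings and, for the lists, filters). Some small medians still changed sign. With no minimum, that of plexins went from −0.17 to 0.20 and that of co-receptors and other receptors from 0.0053 to −0.30. At a mean of at least 5 FPKM, that of semaphorin shedding went from 0.028 to −0.11. With 1 FPKM added, the log2 ratio of Sema4a went from −0.95 to −0.47 and that of Plxnd1 from −0.71 to −0.24. Upper quartile and median scaling shifted log2 ratios by 0.0033 and −0.0027. The highest entry alone gave the same values, since each member has 1 entry. Filters of at least 1 FPKM in the higher genotype, or of a mean from 0.5 to under 2 FPKM, were added later. They were added after seeing that Sema5a has a mean under 1 FPKM. Under the first of them, 121 gene names were at least 2-fold lower and 59 at least 2-fold higher in fl/fl. Sema5a passed that filter only through its wt/fl value, so its being past 2-fold there is no separate evidence.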

Other observations

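Sema5a and Plxnb2 lie on chromosome 15, the chromosome of Myh9. In mm9 positions, 45.0 Mb separate Sema5a from Myh9, and 11.3 Mb separate Myh9 from Plxnb2 on its other side. Of the 385 gene names of chromosome 15 whose mean reached 1 FPKM, 1.30% were at least 2-fold lower and 0.519% at least 2-fold higher in fl/fl, beside 0.831% and 0.405% over all gene names. The lower ones were 5 gene names, of which Myh9, the deleted gene, was 1. Within 2 Mb of Sema5a there were 20 other gene names, of which 8 had a mean of at least 1 FPKM. Their log2 ratios ran from −0.29 (Rpl30, 58.3 and 47.8 FPKM) to 1.01, and the 1 past 2-fold was Ankrd33b, which was higher in fl/fl (3.56 and 7.15 FPKM). Hrsp12 was also higher and just short of 2-fold (16.8 and 32.2 FPKM, log2 ratio 0.94). Laptm4b, with a mean under 1 FPKM, was lower (1.19 and 0.269 FPKM). On either side, the nearest gene names whose mean reached 1 FPKM were Fam173b (log2 ratio −0.24) and Mtdh (log2 ratio −0.073). These values were looked at after those of Sema5a had been seen, and no test was made.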
